A study of Mus musculus with 12 samples.

Results

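The genes described here are those of glycolysis and of the response to low oxygen, followed through the embryonic pancreas with and without β-catenin. They were chosen by name from a list of 35 genes, keeping every probe set whose only gene symbol in the array annotation was a listed gene. This gave 32 genes out of 18193 with such a probe set, and 31 of them, read by 64 probe sets, could be tested. Gapdh was read only by 3 quality control probe sets, which lie toward the 5′ end, in the middle and toward the 3′ end of its transcript, so its values are given without a test. The 3 probe sets of Bnip3l also carried the symbol of a pseudogene, and no probe set of Gpi1 or Eno1 was found under these symbols, so these 3 genes are not analysed here.

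The study asked what the loss of β-catenin, the mediator of canonical Wnt signaling, does to the developing pancreas, and profiled 12 pancreata on Affymetrix MOE430 2.0 arrays, 1 pancreas per array. Of the embryos taken at E14.5, 2 were wildtype and 4 were β-catenin KO, and the E16.5 embryos were divided in the same way. KO embryos carried the Pdx1-cre transgene and a pair of floxed β-catenin alleles, and all embryos came from matings of Pdx1Cre/+; β-catenin flox/+ mice. The Pdx1 promoter drives the recombinase in the pancreatic epithelium and not in mesenchyme, vessels, nerves or blood, all of which contribute RNA to a whole pancreas, and recombination was probably mosaic. The alleles that each wildtype embryo carried are not given in the sources used here. One of the deposited texts gives the earlier day as E14.6. All deposited values are ratios to the mean of the day's wildtype pair, so a value of 1 is the wildtype mean of that day, and transcript levels cannot be compared between genes or between the wildtype pancreata of the 2 days.

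Glycolysis splits glucose into pyruvate, and lactate dehydrogenase regenerates the cofactor it needs by turning pyruvate into lactate. When oxygen is scarce, the prolyl hydroxylases that mark HIF1α for destruction slow down, and the stabilized factor raises transcription of glucose transporters, most glycolytic enzymes, the kinase that keeps pyruvate out of mitochondria, and the hydroxylases themselves. Cells of the embryonic pancreas lie in low oxygen before the gland is well perfused, and HIF1α has been linked to restrained endocrine differentiation in explants.

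In the whole data set, Ctnnb1, which encodes β-catenin, did not pass the test on either day. Its 3 probe sets ranged between 0.701 and 1.31 in the KO pancreata of E14.5 and between 0.62 and 1.05 in those of E16.5. Whether the 3 probe sets read the deleted exons is not given in the sources used here, so they do not check the genotype. KO_540G at E14.5 had the widest spread of log2 ratios, with an interquartile range of 0.41 beside 0.20 to 0.28 in the other KO arrays of that day. Both wildtype arrays of that day had 0.11, which is narrow in part because they are ratios to their own mean. Markers of acinar cells were lower at E16.5, with 12 of 13 below the wildtype mean and 6 past the test. Over all genes, 7727 of 18193 were below wildtype and 2.15% passed as lower. The acinar median log2 ratio lay between -0.98 and -3.46 in the KO pancreata and at -0.01 and 0.01 in the wildtype pair. On the same day the medians of the mesenchymal and neural markers were 0.43 and 0.88 above wildtype on the log2 scale. In a whole pancreas, fewer cells of a type and less RNA per cell cannot be told apart, and the part of this change in cell content in the results that follow was not tested.

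**Figure D1:**
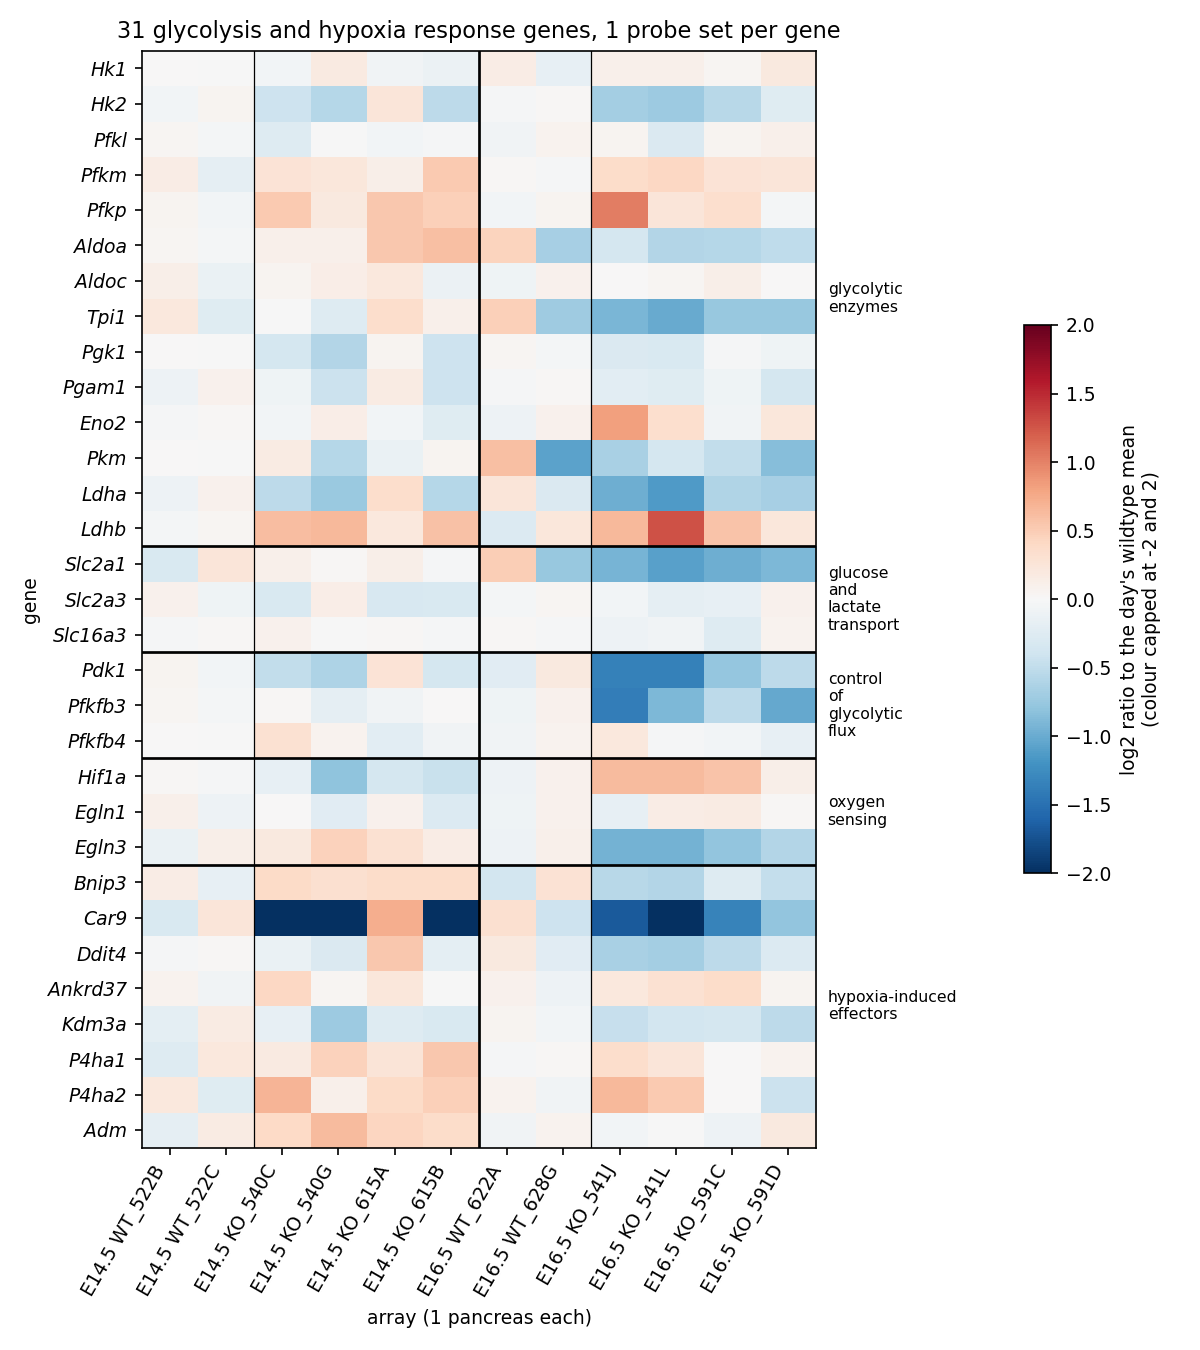
Log2 ratio to the day's wildtype mean for 31 genes (rows, 1 probe set each, grouped by role) in each of the 12 arrays (columns). Egln3, Pdk1 and Pfkfb3 are among the 11 genes below the wildtype pair in all 4 E16.5 KO pancreata, as are Tpi1 and Slc2a1. Aldoa, Tpi1, Pkm and Slc2a1 divide the E16.5 wildtype pair.

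At E16.5, 3 of the 31 genes had a probe set that passed the test, and all 3 were lower in KO pancreata. They were Egln3, a HIF prolyl hydroxylase that is itself induced by HIF, Pdk1, the pyruvate dehydrogenase kinase that diverts pyruvate from mitochondria, and Pfkfb3, which makes the fructose-2,6-bisphosphate that speeds phosphofructokinase. In all, 4 of 64 member probe sets passed an adjusted p of 0.05 (limma, Benjamini-Hochberg over all 45037 probe sets), or 6.25%, beside 2.62% of all probe sets. The 4 were all lower in KO, a direction in which 1.82% of all probe sets passed, and no member was higher, a direction in which 0.802% passed. On 1 probe set per gene, 2 of the 31 genes passed as lower, beside 2.15% of all genes.

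The decrease was largest for Egln3. On probe set 1418649_at the wildtype pancreata read 0.930 and 1.07, and the KO pancreata read 0.270, 0.235, 0.332 and 0.339. The groups did not overlap, and no KO pancreas exceeded 0.339 of the wildtype mean. The log2 fold change was -1.78 ± 0.21 (SE, 2 wildtype and 4 KO), with an adjusted p of 0.002. The other Egln3 probe set, 1418648_at, read 0.932 and 1.07 in wildtype and 0.520, 0.522, 0.578 and 0.668 in KO. It gave the same direction at a smaller size, with a log2 fold change of -0.81 ± 0.14 (SE) and an adjusted p of 0.012.

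Pdk1 was read by 4 probe sets. On 1435836_at the wildtype pancreata read 0.741 and 1.26 and the KO pancreata read 0.330, 0.308, 0.463 and 0.419. All 4 KO values lay below the lower wildtype value, and the log2 fold change was -1.37 ± 0.24 (SE, adjusted p = 0.016). Probe sets 1423748_at and 1423747_a_at were also below both wildtype values in every KO pancreas, at log2 fold changes of -0.98 and -1.05, but did not pass (adjusted p = 0.084 and 0.128). The last, 1434974_at, had a log2 fold change of -0.06, with KO values from 0.914 to 1.06.

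For Pfkfb3, 1416432_at read 0.943 and 1.06 in wildtype pancreata and 0.383, 0.534, 0.693 and 0.495 in KO pancreata. The groups did not overlap, and the log2 fold change was -0.96 ± 0.18 (SE, adjusted p = 0.021). The second Pfkfb3 probe set, 1456676_a_at, did not share this, at 0.03 on the same scale. Pfkfb4, a second enzyme of the same kind, read from 0.891 to 1.16 in KO.

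**Figure D2:**
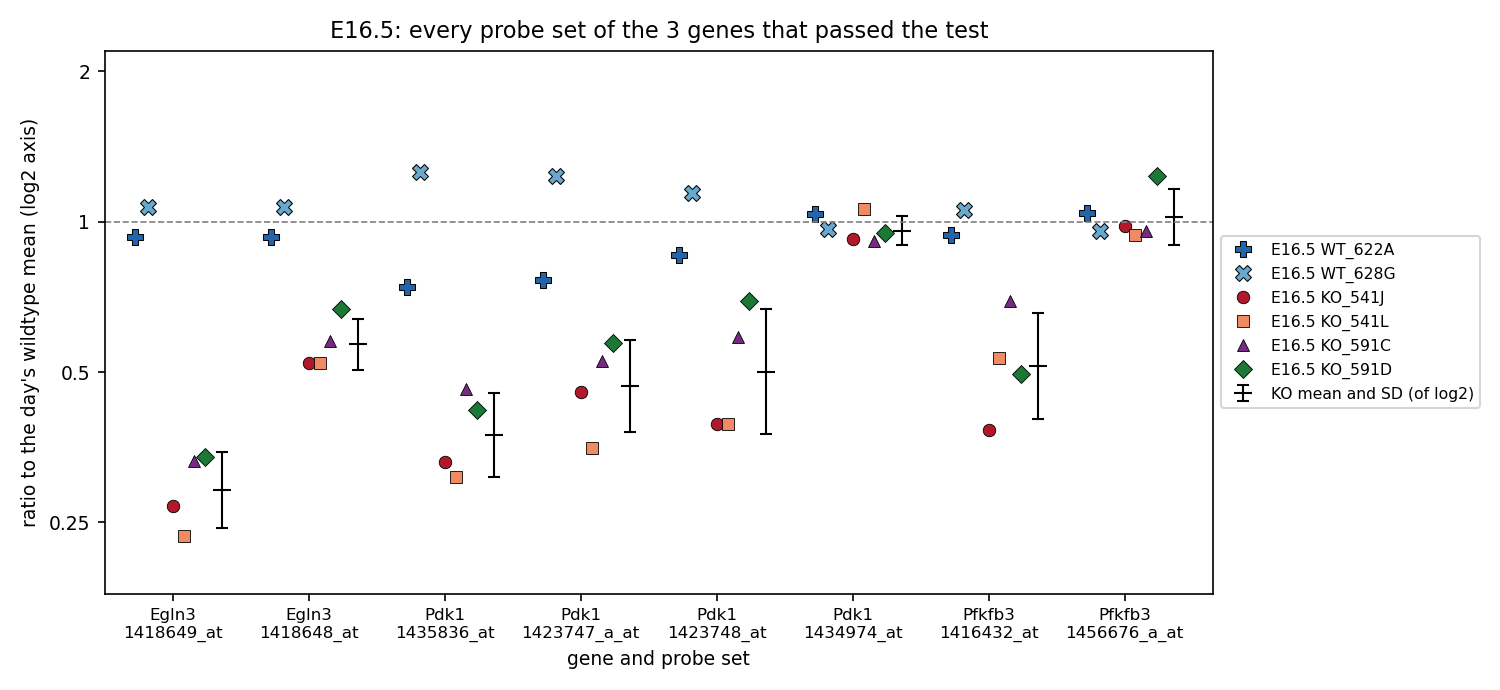
Ratio to the wildtype mean of E16.5 (log2 axis) on every probe set of Egln3, Pdk1 and Pfkfb3, with a point for each pancreas and the KO mean and SD of the log2 ratios. On 6 of the 8 probe sets all 4 KO points lie below both wildtype points, and the remaining probe set of Pdk1 and that of Pfkfb3 stay near 1.

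The call for Egln3 1418649_at held when any 1 array was left out. With 1 wildtype array of a day left, the fit takes the spread from the other groups, so the lone array is assumed to vary like them. Without wildtype WT_628G, Egln3 1418648_at (log2 fold change -0.71, adjusted p = 0.086), Pdk1 (-0.98, 0.113) and Pfkfb3 (-0.87, 0.117) no longer passed, and Pfkfb3 was also lost without WT_622A (-1.04, 0.075).

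The promoters of these 3 genes are shown because the genes passed the test. HIF binds the letters ACGTG or GCGTG. Both were searched on either strand, so that CACGT and CACGC count as matches, and CACGTG holds a pair of overlapping ones. The sequences are those of RefSeq on GRCm38.p6, 300 bases around a transcription start, written 5′ to 3′ on the strand of the gene, with matches in capitals. Egln3 has 1 start at chr12:54203825-54204124 on the minus strand, Pdk1 is shown for chr2:71872974-71873273 on the plus strand, and Pfkfb3 for its 2 starts at chr2:11553880-11554179 and chr2:11502041-11502340 on the minus strand.
Egln3: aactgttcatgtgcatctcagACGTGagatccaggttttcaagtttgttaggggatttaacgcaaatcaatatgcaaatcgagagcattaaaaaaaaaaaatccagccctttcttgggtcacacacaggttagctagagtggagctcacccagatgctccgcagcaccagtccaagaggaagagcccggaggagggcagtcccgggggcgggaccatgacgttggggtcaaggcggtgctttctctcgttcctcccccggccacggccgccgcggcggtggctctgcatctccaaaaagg
Pdk1: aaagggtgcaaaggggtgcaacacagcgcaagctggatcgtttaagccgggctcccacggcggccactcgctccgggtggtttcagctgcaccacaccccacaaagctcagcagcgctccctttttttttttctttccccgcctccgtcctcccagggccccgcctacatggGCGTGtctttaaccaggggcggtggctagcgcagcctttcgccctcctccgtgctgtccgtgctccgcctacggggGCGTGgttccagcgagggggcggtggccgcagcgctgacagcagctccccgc
Pfkfb3, first start: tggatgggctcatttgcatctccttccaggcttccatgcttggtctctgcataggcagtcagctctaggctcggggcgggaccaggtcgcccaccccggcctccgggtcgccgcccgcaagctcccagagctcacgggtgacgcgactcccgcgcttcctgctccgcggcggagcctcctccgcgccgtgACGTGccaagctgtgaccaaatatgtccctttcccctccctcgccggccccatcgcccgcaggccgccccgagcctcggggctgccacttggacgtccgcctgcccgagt
Pfkfb3, second start: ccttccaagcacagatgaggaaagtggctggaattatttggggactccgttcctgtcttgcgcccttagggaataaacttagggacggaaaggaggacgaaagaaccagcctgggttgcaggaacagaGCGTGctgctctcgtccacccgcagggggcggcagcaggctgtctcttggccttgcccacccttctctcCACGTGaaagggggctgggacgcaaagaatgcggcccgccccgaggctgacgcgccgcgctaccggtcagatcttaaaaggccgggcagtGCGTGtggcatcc
The Egln3 promoter held 1 match, the Pdk1 promoter 2, the first Pfkfb3 start 1 and the second 4, of which 2 overlap. A second Pdk1 start, at chr2:71874654-71874953, held 0. Such a match was common, being present in 43.8% of all 32851 promoters of this length and in 35 of the 44 promoters of the members (79.5%). A match is a string of letters and not a measured binding site.

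The other members of the oxygen sensing group gave no call. Egln1, the prolyl hydroxylase that sets HIF1α levels in most cells, came nearest on 1451110_at. Wildtype pancreata read 1.15 and 0.853 there, and KO pancreata read 0.645, 0.717, 0.763 and 0.711. No KO value reached the wildtype pair, with a log2 fold change of -0.48 ± 0.13 (SE) and an adjusted p of 0.073, while its other probe set, 1423785_at, gave 0.05. Hif1a itself, the oxygen-regulated subunit, differed between probe sets. On 1416035_at wildtype pancreata read 0.935 and 1.06 and KO pancreata read 1.55, 1.56, 1.49 and 1.09, a log2 fold change of 0.50 with an adjusted p of 0.178. KO_591D was the pancreas close to wildtype, and without it the value was 0.62 with an adjusted p of 0.043. Leaving out the lowest KO value enlarges the difference by construction, so this adds no separate support. On 1448183_a_at the wildtype pair was 0.641 and 1.36 and the KO pancreata 1.59, 3.26, 2 and 1.03, and the remaining Hif1a probe sets gave log2 fold changes of 0.15 and 0.00.

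On 3 of the 14 tested enzymes of glycolysis, and on Gapdh and Slc2a1, the wildtype pancreata of E16.5 differed by over 2-fold. Over all 14 enzymes the median log2 difference between the wildtype pair was 0.00073. The difference was widest for Aldoa, which encodes the main fructose-bisphosphate aldolase, Gapdh, the dehydrogenase of the pathway, and Pkm, the pyruvate kinase. On Aldoa 1433604_x_at, WT_622A read 1.6 and WT_628G read 0.396, while the KO pancreata read 0.442, 0.386, 0.41 and 0.386. The KO values were close to one another and to WT_628G, and the comparison with the wildtype mean gave a log2 fold change of -0.98 ± 0.40 (SE, adjusted p = 0.240).

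Gapdh did the same on each of its control probe sets. At the 5′ end WT_622A and WT_628G read 1.42 and 0.577 and the KO pancreata 0.559, 0.679, 0.675 and 0.52. In the middle they read 1.55 and 0.445 against 0.385, 0.478, 0.558 and 0.45, and at the 3′ end 1.48 and 0.522 against 0.493, 0.519, 0.594 and 0.549. Gapdh is also a common reference transcript, and in these libraries WT_622A held 2.47 to 3.49 times the level of WT_628G, depending on the probe set. At E14.5 the wildtype pair was even on Gapdh, between 0.932 and 1.07 over the 3 probe sets. KO_540G was the lowest KO pancreas on each of them that day, at 0.647, 0.499 and 0.762, and the remaining 3 ranged from 0.729 to 1.14.

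On Pkm 1417308_at WT_622A read 1.52 and WT_628G 0.479, and the KO pancreata lay between them at 0.639, 0.782, 0.71 and 0.556 (log2 fold change -0.36, adjusted p = 0.708). Tpi1, triosephosphate isomerase, read 1.39 and 0.614 on 1415918_a_at, with KO values of 0.53, 0.499, 0.589 and 0.592. Slc2a1, the glucose transporter GLUT1, read 1.41 and 0.593 on 1426600_at, with KO values of 0.523, 0.469, 0.508 and 0.538. On these last 2 probe sets all KO pancreata were below both wildtype pancreata, but at 0.900 and 0.859 times WT_628G (adjusted p = 0.177 and 0.115).

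In all, 9 of 64 member probe sets differed by over 2-fold between the wildtype pancreata of E16.5, or 14.1%, beside 1.21% of all probe sets. Of the 9, 8 were higher in WT_622A (beside 0.675%), on Aldoa, Tpi1, Pkm and Slc2a1, and 1, Hif1a 1448183_a_at, was higher in WT_628G (beside 0.533%). At E14.5 no member did so, beside 0.151% of all probe sets. With the 3 Gapdh probe sets included, the KO pancreata gave 44 values on 11 probe sets that were over 2-fold higher in WT_622A, and each of the 44 was nearer to WT_628G than to WT_622A on the log2 scale. KO means on these 11 probe sets were 0.859 to 1.4 times WT_628G. The call therefore rested on which wildtype pancreas was kept. Without WT_628G, 9 member probe sets passed, all lower in KO and 7 of them on Aldoa (4 probe sets), Tpi1, Pkm and Slc2a1. The Aldoa value on 1433604_x_at was then -1.99 with an adjusted p of 0.004, the Pkm value -1.19 with 0.044, and the Slc2a1 value -1.47 with 0.004. Without WT_622A, 4 passed, on Egln3, Pdk1 and Bnip3, and no glycolytic enzyme did, with Aldoa at 0.032 and Pkm at 0.48.

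**Figure D3:**
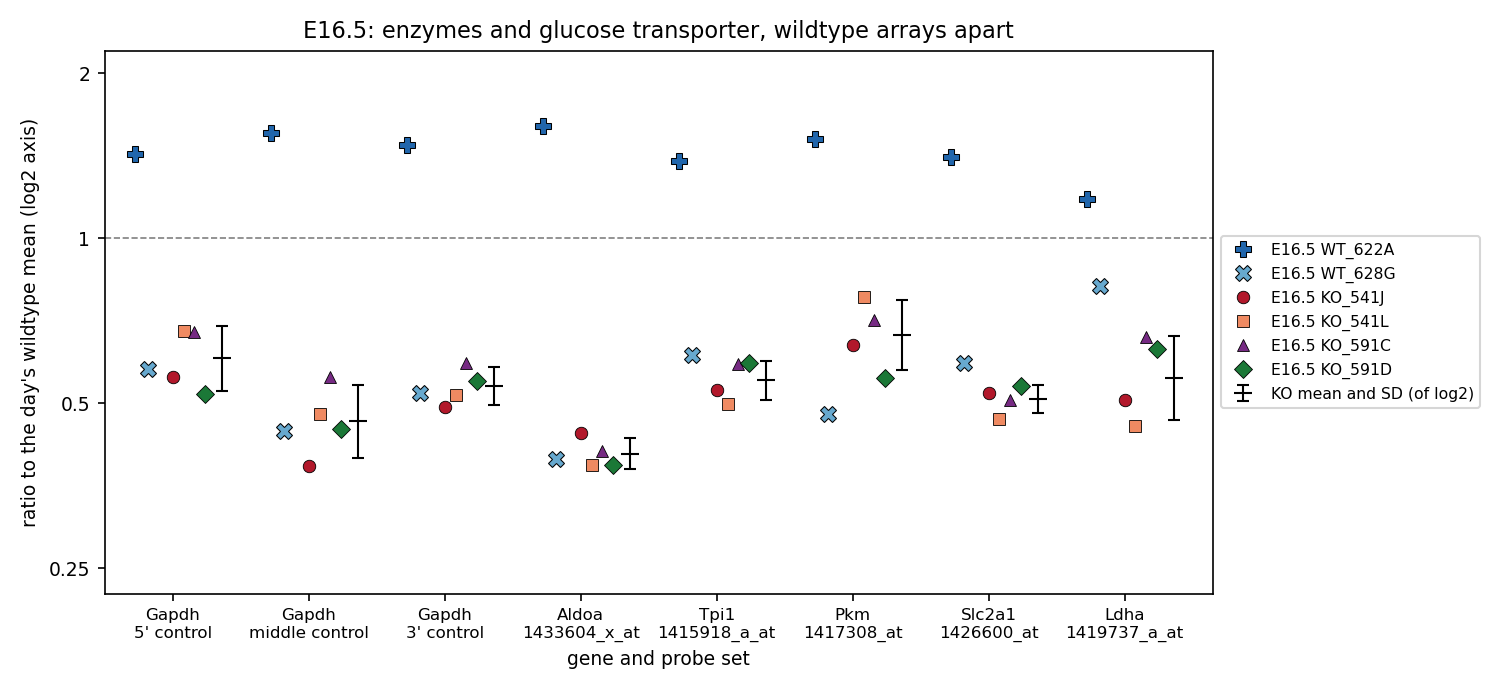
Ratio to the wildtype mean of E16.5 (log2 axis) for Gapdh, 3 further enzymes, Slc2a1 and Ldha, with a point for each pancreas and the KO mean and SD of the log2 ratios. For all but Ldha, WT_622A stands alone at 1.39 to 1.6 and the 4 KO pancreata are nearer to WT_628G. On Pkm they lie between the wildtype pair, with a mean of 1.4 times WT_628G.

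Several measures were set beside this split. The acinar marker median hardly differed between the wildtype pancreata of E16.5, at -0.01 and 0.01, and 1 marker, Cuzd1, differed by over 2-fold, being lower in WT_622A (-2.24 on the log2 scale). Markers over 2-fold higher in WT_622A were Col1a1 of mesenchyme (1.18), Lyz2 of leukocytes (1.21), Myh3 of skeletal muscle (1.05) and Slc4a1 of red cells (1.01). Red cell markers had a median difference of 0.31 on the log2 scale, higher in WT_622A, with 1 of 8 over 2-fold. The β-actin control probe sets gave a log2 ratio of 3′ to 5′ signal of -0.31 in WT_622A and 0.38 in WT_628G, and of 0.44, 0.07, 0.08 and 0.47 in the KO pancreata. The Gapdh split was as wide at its 3′ end as at its 5′ end. The parts of cell content and RNA integrity in the split of the enzymes were not tested.

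Ldha, the lactate dehydrogenase subunit that favours lactate formation, was an enzyme below both wildtype pancreata in every KO at E16.5. Wildtype pancreata read 1.18 and 0.819 and KO pancreata read 0.508, 0.455, 0.66 and 0.629, with a log2 fold change of -0.82 ± 0.27 (SE), which did not pass (adjusted p = 0.144). Hk2, the inducible hexokinase, read 0.982 and 1.02 against 0.622, 0.603, 0.684 and 0.849 (-0.55, adjusted p = 0.200). The brain-type aldolase Aldoc read 0.959 and 1.04 against 0.748, 0.775, 0.717 and 0.713 on 1451461_a_at, with a log2 fold change of -0.44 and an adjusted p of 0.089, and 0.05 on its other probe set.

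Ldhb, the subunit that favours the reverse reaction, leaned the other way on all 4 of its probe sets and on both days. On 1434499_a_at wildtype pancreata of E16.5 read 0.949 and 1.05 and KO pancreata read 2.68, 3.87, 1.73 and 0.945. The log2 fold change was 1.02 ± 0.42 (SE, adjusted p = 0.238), and over the 4 probe sets it ran from 0.70 to 1.02. KO_591D was the pancreas at wildtype level, and without it all 4 probe sets passed, at 0.86 to 1.39 with adjusted p from 0.020 to 0.047. That omission removes the lowest KO value of each probe set, so it enlarges the difference by construction and adds no separate support. The mesenchymal markers had their lowest KO medians in KO_591C and KO_591D, at 0.11 and 0.27, and their highest, 1.20, in KO_541L, while the endocrine, neural and endothelial medians were highest in KO_541L and lowest in KO_591D. For KO_541J, KO_541L, KO_591C and KO_591D in turn, the endocrine medians were 0.44, 1.08, 0.85 and -0.06, the neural ones 1.07, 1.12, 0.93 and 0.29, and the endothelial ones 0.24, 0.65, 0.21 and 0.05. The part of these cells in the Ldhb level was not tested. At E14.5 the same probe set read 0.983 and 1.02 in wildtype and 2.1, 1.97, 1.4 and 2.39 in KO, with log2 fold changes from 0.52 to 0.95 over the 4 probe sets (adjusted p from 0.696 to 0.739).

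The remaining enzymes differed little or unevenly. At E16.5 the log2 fold changes of the phosphofructokinase genes were 0.33 for Pfkm, 0.01 to 0.39 for the 3 probe sets of Pfkp and -0.30 to 0.22 for those of Pfkl, and those of the hexokinase Hk1 were 0.12 and 0.48. Pgk1, phosphoglycerate kinase, ranged from -0.17 to 0.06. Pgam1, phosphoglycerate mutase, was at -0.23 and Eno2, the neuronal enolase, at 0.33, with KO_541J highest at 1.77. None of these passed, with adjusted p between 0.212 and 0.972.

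Of the transporters, Slc16a3, which exports lactate, was at -0.09. Slc2a3, the glucose transporter GLUT3, was read by 4 probe sets that disagreed. On 1455898_x_at the KO pancreata read 4.57, 2.2, 1.7 and 1.09 beside wildtype values of 1.26 and 0.744, and on 1421924_at they read 0.96, 0.884, 0.894 and 1.07 beside 0.975 and 1.02. The log2 fold changes were 1.10 and -0.08, and none of the 4 passed.

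Genes induced by hypoxia showed lower and higher levels at E16.5. Car9, the membrane carbonic anhydrase used as a marker of hypoxia, read 1.25 and 0.751 in wildtype and 0.311, 0.0795, 0.398 and 0.579 in KO. All KO values were below the wildtype pair, and the log2 fold change of -1.82 ± 0.87 (SE) did not pass (adjusted p = 0.330). Its SE comes from the spread within all 4 groups of both days. These include the KO pancreata of E14.5, where Car9 ranged from 0.197 to 1.65. Bnip3, a mitophagy receptor, read 0.778 and 1.22 against 0.677, 0.666, 0.834 and 0.719 (-0.44, adjusted p = 0.195). Without WT_622A the log2 fold change of Bnip3 was -0.76. That omission removes the wildtype value nearer to the KO pancreata, so it enlarges the difference by construction and adds no separate support. Kdm3a, a histone demethylase, was at -0.43 and Ddit4, an inhibitor of mTORC1, at -0.51, with every KO pancreas below both wildtype pancreata in each. Ankrd37 was at 0.24, and the collagen prolyl hydroxylases P4ha1 and P4ha2 were between 0.17 and 0.28. Adm, the vasoactive peptide adrenomedullin, gave 0.01 on 1416077_at and 0.94 on 1447839_x_at, where KO pancreata read 2.28, 2.88, 1.71 and 1.18 (adjusted p = 0.111).

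Before adjustment, a p below 0.05 was reached at E16.5 by 28 of 64 member probe sets, or 43.8%, beside 16.6% of all probe sets. Of these, 18 were lower (28.1%, beside 8.16%) and 10 higher (15.6%, beside 8.48%), on 18 genes. All 4 KO pancreata lay outside the wildtype pair on 20 of 64, or 31.2%, beside 25.6% of all probe sets, with 16 below (beside 11.1%) and 4 above (beside 14.5%). Probe sets of a gene share their transcript, and 17 of the 31 genes had more than 1. Over 1 probe set per gene the median log2 fold change was -0.09 for the members and 0.03 for all genes. By role, it was -0.96 for control of glycolytic flux, -0.21 for hypoxia-induced effectors, -0.10 for the enzymes, -0.09 for the transporters and 0.05 for oxygen sensing.

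At E14.5 no member passed the test (limma, adjusted p under 0.05), beside 0.0111% of all probe sets. Before adjustment, 10 of 64 had a p below 0.05, or 15.6%, beside 6.86% of all, with 8 higher in KO (12.5%, beside 2.34%) and 2 lower (3.12%, beside 4.52%). On 1 probe set per gene, the median was -0.02 over the members and 0.01 over all genes. All 4 KO pancreata lay outside the wildtype pair on 15 of 64, or 23.4%, beside 16.2%, with 14 above (beside 8.17%) and 1 below (beside 8.06%). On that day 9 of 9 mesenchymal markers (median log2 fold change 0.29), 8 of 8 of leukocytes (0.25) and 10 of 11 endocrine ones (0.53) were above the wildtype mean. So were 8 of 8 of skeletal muscle (0.14), 6 of 7 of neurons and glia (0.42) and 5 of 7 of endothelium (0.15). The numbers were 3 of 6 for duct cells (0.03), 3 of 8 for red cells (-0.21) and 3 of 13 for acinar cells (-0.39). Over all genes, 9640 of 18193 were above wildtype. None of these markers was called, and their part in the lean of the members was not tested.

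The smallest unadjusted p on this day belonged to Adm. On 1416077_at wildtype pancreata read 0.883 and 1.12 and KO pancreata read 1.32, 1.55, 1.34 and 1.29. The KO pancreata were all above wildtype, at a log2 fold change of 0.47 ± 0.13 (SE, adjusted p = 0.521). P4ha1 read 0.839 and 1.16 against 1.14, 1.38, 1.19 and 1.45 on 1426519_at, and 1.06 and 0.943 against 1.66, 1.31, 1.43 and 1.42 on 1452094_at. Their log2 fold changes were 0.38 and 0.54, each with an adjusted p of 0.677, and P4ha2 was at 0.43.

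Aldoc read 1.16 and 0.843 on 1451461_a_at against 1.2, 1.11, 1.25 and 1.31, at 0.30 on the log2 scale. Bnip3 read 1.11 and 0.89 against 1.3, 1.25, 1.29 and 1.29, at 0.36. Hif1a on 1416035_at was lower, with wildtype values of 1.02 and 0.979 and KO values of 0.893, 0.575, 0.785 and 0.737 (-0.44, adjusted p = 0.678). Kdm3a read 0.877 and 1.12 against 0.892, 0.606, 0.834 and 0.812, at -0.35. Hif1a was thus the member below wildtype in every KO pancreas at E14.5 and above it in every KO pancreas at E16.5, on the same probe set, with a difference between the days of 0.93 that did not pass (adjusted p = 0.179).

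Several HIF targets divided the E14.5 KO pancreata instead. Car9 read 0.197, 0.239 and 0.198 in KO_540C, KO_540G and KO_615B, and 1.65 in KO_615A, beside wildtype values of 0.812 and 1.19. The one pancreas was thus above both wildtype pancreata and the others far below, and the log2 fold change of -1.48 ± 0.87 (SE) did not pass (adjusted p = 0.818). The same order, with KO_615A above and the other KO pancreata below the wildtype pair, was seen for 5 further genes chosen after their values were seen. The share of all probe sets with this order was not counted. Ldha read 1.28 in KO_615A and 0.598 to 0.696 in the others. Hk2 read 1.19 and 0.671 to 0.75, Ddit4 read 1.46 and 0.814 to 0.915, and Pdk1 on 1423748_at read 1.21 and 0.655 to 0.781. Pgk1 on 1417864_at read 1.03 and 0.668 to 0.782, beside wildtype values of 1.01 and 0.99. Pdk1 1423747_a_at and Pgk1 1439435_x_at shared the order, and other probe sets of these genes did not. On Pdk1 1435836_at KO_540C and KO_615B, at 1.03 and 0.946, lay between the wildtype values of 1.06 and 0.936. On Pgk1 1438640_x_at KO_615A, at 1.035, lay between 0.947 and 1.05. None of these genes passed the test of KO against wildtype on that day. KO_615A was the highest KO pancreas on 22 of 64 member probe sets, or 34.4%, beside 19.4% of all probe sets. Its median log2 ratio over the 31 genes was 0.21 beside -0.02 to 0.03 in the others. Both values include the genes chosen above. The acinar marker median was also highest in KO_615A, at 0.56 beside -0.40, -0.24 and -1.23, and the part of cell content in this order was not tested.

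**Figure D4:**
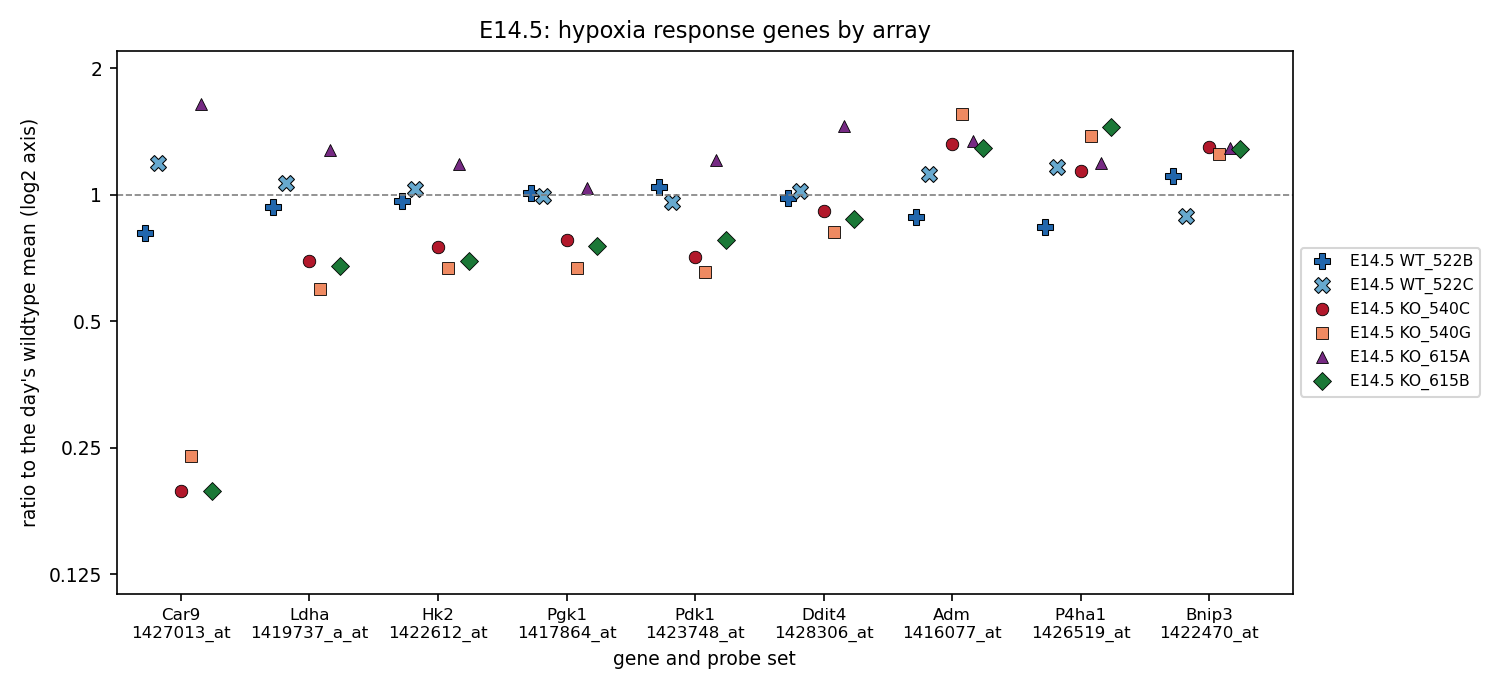
Ratio to the wildtype mean of E14.5 (log2 axis) for 9 HIF-responsive members, with a point for each pancreas. For Car9, Ldha, Hk2, Pgk1, Pdk1 and Ddit4, KO_615A lies above the wildtype pair and the other 3 KO pancreata below it, whereas Adm and Bnip3 have all 4 KO pancreata above it.

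Among the other members at E14.5, none of which passed, probe sets of Hk1, Pfkp and Aldoa were found on which every KO pancreas was above both wildtype pancreata. Hk1 on 1437974_a_at read 0.978 and 1.02 in wildtype and 1.54, 1.58, 1.16 and 1.46 in KO (log2 fold change 0.51, adjusted p = 0.762). Pfkp on 1416069_at read 1.03 and 0.966 against 1.44, 1.15, 1.45 and 1.39 (0.43, adjusted p = 0.766). Pfkfb3 was at -0.05 and 0.13, Pfkfb4 at 0.03, Slc16a3 at 0.02, Egln1 at -0.10 and 0.15, Ankrd37 at 0.17, Pgam1 at -0.19, Pkm at -0.12 and Eno2 at -0.06. Pfkm was at 0.29, and Hk1, Pfkl, Pfkp and Slc2a3 each had probe sets of both signs, between -0.20 and 0.51. Slc2a1 lay between 0.08 and 0.34 and Aldoa between 0.14 and 0.52, with every KO pancreas above both wildtype pancreata on 2 of its 5 probe sets, while Tpi1 lay between -0.01 and 0.06. On Slc2a1 1426600_at the wildtype pair read 0.811 and 1.19, among the widest of the members that day, beside KO values of 1.07, 1.02, 1.08 and 0.984. Hif1a 1448183_a_at, at 0.815 and 1.19 with KO values of 1.1, 0.527, 0.911 and 0.766, and Car9 were the other wide pairs.

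The KO effect changed between the days for 1 gene. Egln3 was above wildtype in 4 of 4 E14.5 KO pancreata on 1418648_at, which read 1.14, 1.38, 1.24 and 1.11 beside 0.913 and 1.09, and in 3 of 4 on 1418649_at, which read 1.68, 0.958, 1.34 and 1.17 beside 1.11 and 0.893. The log2 fold changes of 0.28 and 0.34 did not pass (adjusted p = 0.741 and 0.833). The difference between the days was -1.09 ± 0.19 (SE, adjusted p = 0.041) on the first and -2.12 ± 0.30 (SE, adjusted p = 0.017) on the second. These were 2 of 64 member probe sets, or 3.12%, both lower at the later day, beside 0.349% of all probe sets (0.273% lower and 0.0755% higher). On 1418648_at the call was lost in 13 of 18 alternatives, among them the omission of any 1 array other than KO_591D, with adjusted p up to 0.644. On 1418649_at it was lost in 4 of 18, which included leaving out either E14.5 wildtype array, at an adjusted p of 0.088 without WT_522B and 0.122 without WT_522C. For Pdk1 1435836_at the difference was -1.42 (adjusted p = 0.132), for Pfkfb3 -0.90 (0.200), for Aldoc -0.74 (0.128), for Bnip3 -0.80 (0.214) and for Egln1 -0.63 (0.212). At an unadjusted p under 0.05 there were 13, or 20.3%, beside 10.4% of all, with 12 lower at the later day (beside 5.04%) and 1 higher (beside 5.32%).

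**Figure D5:**
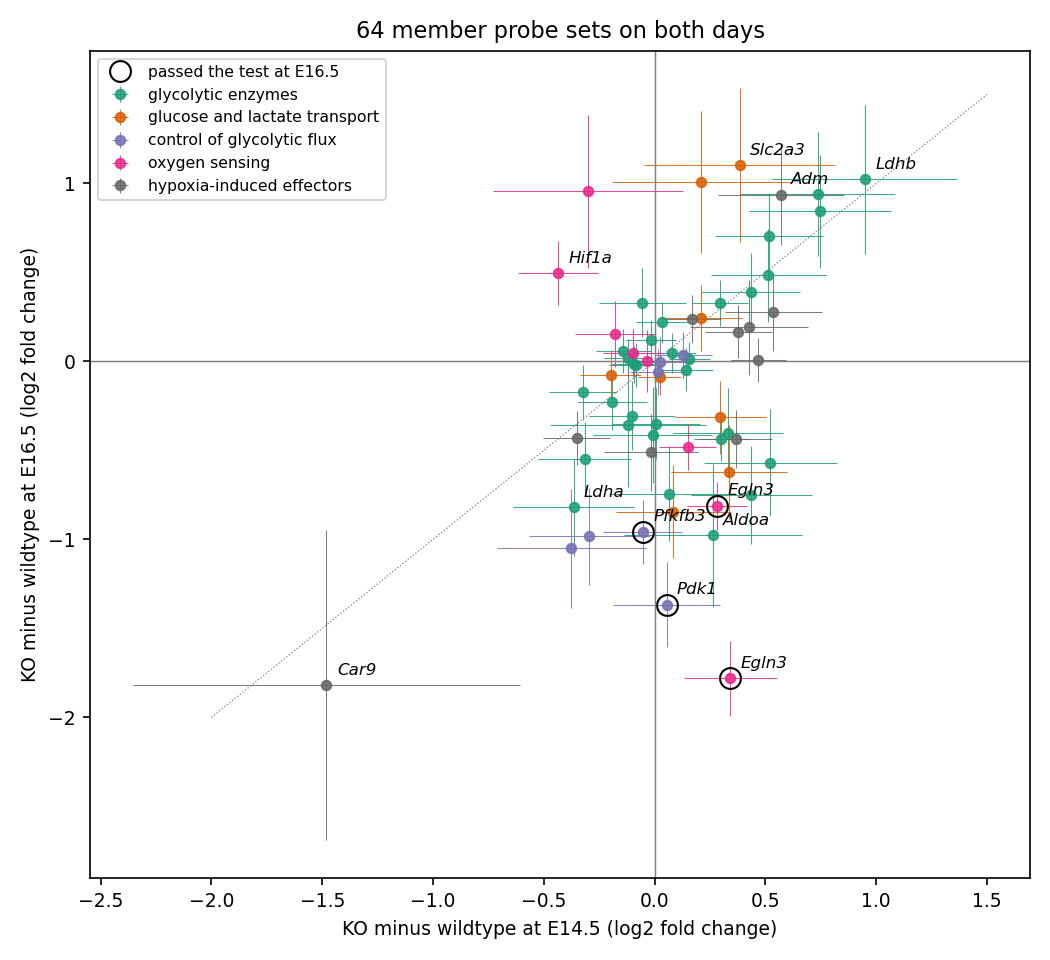
KO minus wildtype log2 fold change at E14.5 (horizontal) and E16.5 (vertical) for the 64 member probe sets, with SE bars and colours by role, and circles on the 4 that passed at E16.5. The dotted line marks equal effects, the circled Egln3 points are to the right of 0 and far below it, and Ldhb is above 0 on both days.

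Neighbouring genes of the pathway, taken from lists by function, gave 5 calls at E16.5, all lower, and none at E14.5. Over all 18193 genes, with 1 probe set each, 2.15% were called lower and 0.879% higher at E16.5. Among 24 further hypoxia-induced genes 3 fell. Ndrg1, a stress-response gene, read 0.931 and 1.07 in wildtype and 0.424, 0.334, 0.429 and 0.494 in KO (log2 fold change -1.26 ± 0.14 SE, adjusted p = 0.001), and its effect also differed between the days (-1.21, adjusted p = 0.032). Gbe1, the glycogen branching enzyme, read 0.919 and 1.08 against 0.268, 0.284, 0.417 and 0.368 (-1.60 ± 0.20 SE, adjusted p = 0.003). Ero1l, an endoplasmic reticulum oxidase, read 0.904 and 1.1 against 0.389, 0.406, 0.57 and 0.549 (-1.08 ± 0.23 SE, adjusted p = 0.033). The median of that list was -0.12, with 15 genes lower and 9 higher. Its highest genes were Lox, at 1.04 (adjusted p = 0.113), and Car12, at 0.50 (adjusted p = 0.155). Vegfa, the endothelial growth factor under HIF control, was at -0.12 with an adjusted p of 0.777.

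At the branch from pyruvate, Pdk3, a second kinase of pyruvate dehydrogenase, fell among 22 other glycolysis and pyruvate genes. It read 1.19 and 0.809 in wildtype and 0.501, 0.5, 0.579 and 0.661 in KO (-0.82 ± 0.17 SE, adjusted p = 0.030). Pdk2 and Pdk4, the other such kinases on that list, did not fall, at 0.04 and 0.49 (adjusted p = 0.93 and 0.20). Pcx, pyruvate carboxylase, which feeds pyruvate into the citric acid cycle and gluconeogenesis, fell among 8 gluconeogenesis genes, from 1.2 and 0.798 to 0.391, 0.36, 0.39 and 0.471 (-1.29 ± 0.20 SE, adjusted p = 0.009). None of 14 citric acid cycle genes, 6 of the pentose phosphate pathway or 13 other HIF pathway components passed at E16.5, and at an unadjusted p under 0.05 there were 4, 1 and 2, beside 18.4% of all genes. Their median log2 fold changes were -0.27, -0.31 and 0.08.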

How the data were processed

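RNA from 12 whole pancreata (120 ng per array) was amplified in 2 rounds, biotin-labelled and hybridised by the authors. Per the labels and the methods, the authors normalized the arrays by RMA in GeneSpring, then deposited linear ratios to the mean of the day's wildtype arrays. On every probe set the wildtype pair of a day sums to 2 within 3e-07, and the ratios run from 0.01 to 26.4. Amplification can weaken signal far from the 3′ end. The division narrows the spread of ratios across the probe sets of a wildtype array. It does not change the log2 spread between the arrays of a group on a given probe set.

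Ratios were log2-transformed and fitted with limma 3.58.1 in R 4.3.3 (4 groups, 8 residual degrees of freedom) on 45037 probe sets, leaving out 64 controls, with two-sided p-values adjusted by Benjamini-Hochberg. The script was tested on simulated data. Genes were named from the platform annotation, and where 1 probe set stood for a gene it was chosen by its name. Members with a call, with the 5 smallest p per day or with the 3 widest wildtype pairs are given by array, as is Gapdh. The genes and lists were chosen with earlier results of these data known. Alternatives were other normalizations, variance priors, array weights, a random block on the number in array names, the methods' t-test and leaving out each array. P-values measure the spread between embryos of a group, of which wildtype has 2 per day, and the number of arrays limits the precision.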

Additional observations from a re-analysis of the deposited data

Results flagged for a closer look

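The KO effect of Egln3 differed between E14.5 and E16.5 by limma's interaction contrast, at -1.09 (adjusted p = 0.041) on probe set 1418648_at and -2.12 (adjusted p = 0.017) on 1418649_at, on the log2 scale. The first call was lost in 13 of 18 alternatives and the second in 4.

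Within the 4 KO pancreata of a day, 11 of 134 groups of values held 1 pancreas far from the other 3, where chance gives about 6.7. At E14.5 it was KO_540G for Pfkp 1416069_at, at 1.15, for Pfkp 1430634_a_at, at 1.04, for Tpi1 1435659_a_at, at 0.62, and for Slc2a3 1421924_at, at 1.09. KO_540G is also the pancreas with the widest spread of log2 ratios over all probe sets. KO_615A stood apart for Car9, at 1.65, and for Ldhb 1416183_a_at, at 1.16, where the other KO pancreata read 1.5 to 1.57. At E16.5 it was KO_591D for Hif1a 1416035_at, at 1.09, for Hif1a 1431981_at, at 1.24, and for Pfkfb3 1456676_a_at, at 1.24, KO_541L for Pfkl 1453541_at, at 0.819, and KO_541J for Slc2a1 1434773_a_at, at 0.98.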

How the results depend on the processing

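The direction of the 4 probe sets that passed at E16.5 held under each of 20 alternatives. Egln3 1418649_at lost its call in 2 of the 20, quantile normalization and the methods' t-test, while Egln3 1418648_at and Pdk1 1435836_at lost it in 5 and Pfkfb3 1416432_at in 6. The number of member probe sets passing at E16.5, 4 in the reported fit, was 9 with array weights, 1 with each day fitted on its own arrays or with trended and robust variance, and 0 with quantile normalization or the methods' t-test, where 10 and 12 had an unadjusted p under 0.05 beside 28 by limma. Quantile normalization forces the narrow wildtype ratios and the wider KO ratios onto one distribution. Leaving out 1 array gave 4 to 12, with 12 without KO_591D, 7 of them higher in KO, and 9 without WT_628G. For the difference between the days the count of 2 became 4 with array weights, 0 with quantile normalization or trended and robust variance (5 and 17 unadjusted), and 0 to 5 with 1 array left out, being 0 without WT_522B or WT_522C (11 unadjusted each) and 5 without WT_628G. Probe sets with all KO outside the wildtype pair went from 15 to 8 at E14.5 and from 20 to 11 at E16.5 under quantile normalization, and the median difference between wildtype arrays from 0.14 to 0.31 and from 0.20 to 0.32. The member median at E16.5 was -0.20 with a mean over the probe sets of each gene. With 1 array left out, the log2 fold change ran from -1.99 to 0.032 for Aldoa 1433604_x_at and from -1.19 to 0.48 for Pkm 1417308_at at E16.5, and from -0.19 to 0.36 for Slc2a1 1426600_at at E14.5. No other direction reversed among the 17 fold changes followed through every alternative. Over all 64 member probe sets, 11 changed sign at E16.5 without WT_622A and 8 without WT_628G. Of the 11, 6 went from between -0.98 and -0.30 to between 0.032 and 0.48, on Aldoa (3 probe sets), Pfkl, Pkm and Tpi1. No paired analysis was possible because the groups share no number in the array names.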
